A study of Mus musculus with 6 samples.

Results

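The genes described here encode the machinery that copies DNA and the enzymes that make its building blocks. Their transcripts were measured in double-negative thymocytes, which are early T cell precursors without CD4 or CD8 on their surface. The list names 46 genes. A member is read here by every probe set (a group of short oligonucleotides on an Affymetrix array) that the platform's table assigns to that gene alone. This gave 57 probe sets of 44 genes, out of 12422 probe sets and 8251 named genes on the array. Pole had no such probe set, and Tyms is read only by probe sets that the table also assigns to a related pseudogene, so neither is described.

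By their descriptions, the 3 arrays of the first group came from RAG1/Ezh2 double mutant mice, and the 3 arrays they are set against from RAG1-deficient mice. On these descriptions both groups lack RAG1, a subunit of the recombinase that cuts antigen receptor genes. Ezh2 is the enzyme of Polycomb repressive complex 2 that methylates lysine 27 of histone H3. Which exons were missing, which promoter or Cre was used, the strain, the sex, the age and whether animals were pooled are not stated in the labels, so p-values measure no more than how these samples scatter, in part perhaps for technical reasons. The titles come in 3 wordings, called numbered, Rag and Thy here, with 1 array of each group in each, and these define 3 title-style pairs. The Rag titles say only T cell, and the double-negative stage of those arrays comes from their descriptions. The titles of the RAG1-deficient numbered and Thy arrays end in the letters WT, while their descriptions say RAG1 deficient and RAG1 mutant.

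Before a cell divides, the origin recognition complex, Cdc6 and Cdt1 load the Mcm helicase onto DNA. The kinases Cdc7 and Cdk2 then switch it on together with Cdc45. Primase and DNA polymerases copy the strands behind it, held by the ring-shaped clamp Pcna, while ribonucleotide reductase, thymidylate synthase and thymidine kinase supply the nucleotides. Many of these genes are transcribed at the entry into S phase by E2F factors. In the thymus, double-negative cells proliferate before they rearrange antigen receptor genes and again after the pre-T cell receptor signals, a step that cells without RAG1 do not reach.

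All values are scaled intensities, on a linear scale in arbitrary units. An intensity cannot be compared between genes, because each probe set has its own brightness. A log2 difference is the mean of log2(intensity + 23) in double mutant arrays minus that in RAG1-deficient arrays. Ezh2 transcript itself stood at 291.5, 650.6 and 723.6 in double mutant arrays (numbered, Rag and Thy), against 1434.7, 1641 and 1789.5 in RAG1-deficient arrays, without overlap. The same order of title styles is used for every set of values that follows.

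Some arrays stood apart in markers of other cells. The CD8 genes Cd8a and Cd8b1, which a double-negative cell should not transcribe strongly, stood at 2973 and 8425.8 on the RAG1-deficient numbered array and at no more than 81.3 and 164.4 on the other arrays. Cd4 and Cd28 were also highest on that array, at 699.2 and 569, against 52.3 to 273 and 188.9 to 316.4 on the others. The other double-positive stage markers read here, Ccr9, Cd5 and Cd6, were not highest on it. The title of that array ends in WT, and whether its cells lacked RAG1 was not tested. The alpha globin gene Hba-a1 stood at 794.2 on the double mutant and 374.6 on the RAG1-deficient array of the Thy style, and between 16351.6 and 30030.9 on the other 4 arrays. Of the 4 erythroid markers on the array, 3 were higher and 1 lower in the double mutant. Epor and Klf1 were highest on the double mutant Thy array, at 191.8 and 202. The neutrophil gene S100a8 stood at 4809.4 on the RAG1-deficient Rag array and between 223.3 and 1523.6 elsewhere. S100a9 and Lyz2 were also highest there, while Elane was not. For 10 myeloid markers the sums ranged over 2938.3 to 4968.7 in double mutant and 2788.4 to 12551.9 in RAG1-deficient arrays, with 7 higher and 3 lower. The summed intensity of the 9 NK and innate lymphoid markers on the array ranged over 8011.9 to 10324.4 in double mutant arrays and over 2856.5 to 4478.2 in RAG1-deficient arrays, while 6 of the 9 were higher and 3 lower. The granzyme gene Gzma made up a large part of that sum: without it the sums were 2228.0, 1852.7 and 3029.6 in double mutant arrays, against 1682.0, 2142.8 and 1612.1 in RAG1-deficient arrays, and overlapped. Gzmb, another granzyme gene, was itself higher without overlap. It read 414.2, 553.1 and 902.7 in double mutant arrays, against 190.8, 199.4 and 298.5 in RAG1-deficient arrays. The sum of 15 double-negative stage markers ranged over 64505.1 to 88157 in double mutant and 71156.9 to 104116 in RAG1-deficient arrays, with 2 higher and 13 lower, and 14 of the 15 were above the filter level on all 6 arrays. For 8 antigen-presenting cell markers the sums ranged over 4606.3 to 19922.1 and over 4897.3 to 29379.1 in the same order, with 8 of 8 lower. For 7 double-positive stage markers they ranged over 970.1 to 1114.3 and over 1179.1 to 13223.7, with 1 higher and 6 lower. For 8 B lineage markers they ranged over 1622.6 to 2050.3 and over 1931.6 to 2618.9, with 2 higher and 6 lower. For 11 stromal and epithelial markers they ranged over 2155 to 3048.7 and over 1864.1 to 2886.5, with 4 higher and 7 lower. In each title-style pair the double mutant array had the lower sum for double-negative, double-positive, antigen-presenting and B lineage markers. None of the markers in these lists was listed at 0. The part of these other cells in the results was not tested. In RNA from a mixed suspension, fewer cells of a type and less RNA per cell cannot be told apart.

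As a group, transcripts for replication and nucleotide synthesis had higher intensities in the double mutant, by a small amount spread over many genes. Of the 44 genes, 42 were bright enough to test, on 47 probe sets, and 40 of them had a log2 difference above 0, with Prim2 and Top1 below. By probe set 45 of 47 were above 0, where 49.6% of all tested probe sets were. The median log2 difference of the 42 genes was 0.42, against 0.0016 for all 5751 tested named genes, of which 50.2% were above 0. The median was above 0 in each title-style pair, at 0.29 in the numbered pair (35 of 42 above 0), 0.35 in the Rag pair (40 of 42) and 0.57 in the Thy pair (39 of 42). Without the RAG1-deficient numbered array, which carried the CD8 signal, the median was 0.44 and 38 of 42 genes were above 0. No single gene passed the test with all 6 arrays.

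**Figure D1:**
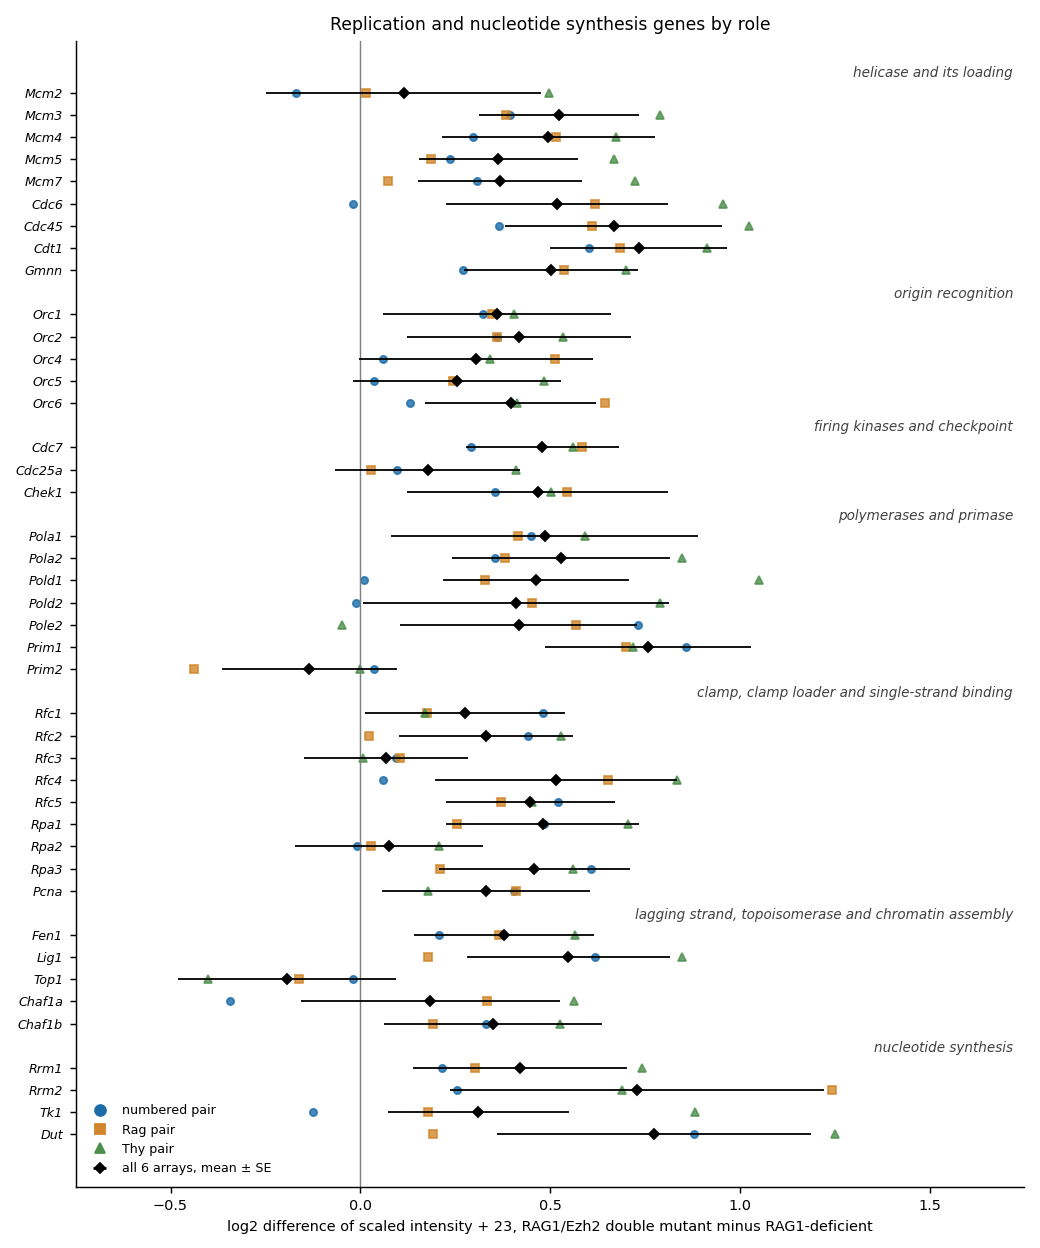
Log2 differences (double mutant minus RAG1-deficient, horizontal axis) of the 42 tested genes, grouped by role on the vertical axis. Black diamonds and bars give the difference over all 6 arrays ± SE from the limma fit with group alone, and coloured symbols give each title-style pair. Most diamonds lie between 0.2 and 0.8, and those of Prim2 and Top1 lie below 0.

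In the limma fit with group alone (the unpaired fit), 0 of the 47 tested probe sets passed at an adjusted p under 0.05, where 0.0393% of all 7642 tested probe sets did. Their adjusted p lay at 0.991 or above. A second fit blocked on title style (called paired). There 0 of 47 passed as well, against 0.667% of all (0.563% higher), and the lowest adjusted p were 0.0583 for Cdt1 and 0.0603 for Prim1. The SE beside a log2 difference is always limma's from the unpaired fit. A paired adjusted p in the same bracket comes from the other fit. At an unadjusted p under 0.05, 5 of the 47 probe sets (10.6%) were higher in the unpaired fit, where 2.29% of all were. In the paired fit 29 (61.7%) were, against 7.73% of all. The 2 groups did not overlap for 9 probe sets (19.1%), all 9 of them higher in the double mutant, while 4.21% of all tested probe sets were higher without overlap and 2.92% lower. One of the 9, that of Dut, passed the filter only through its double mutant values, so it had to differ. Without Dut the median of the other 41 genes was 0.42, with 39 above 0. In all 3 pairs 34 probe sets (72.3%) were higher, against 18.8% of all, and 1 (Top1) was lower, against 17.1% of all. Genes of one program vary together within a sample, so these shares do not count independent events.

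**Figure D2:**
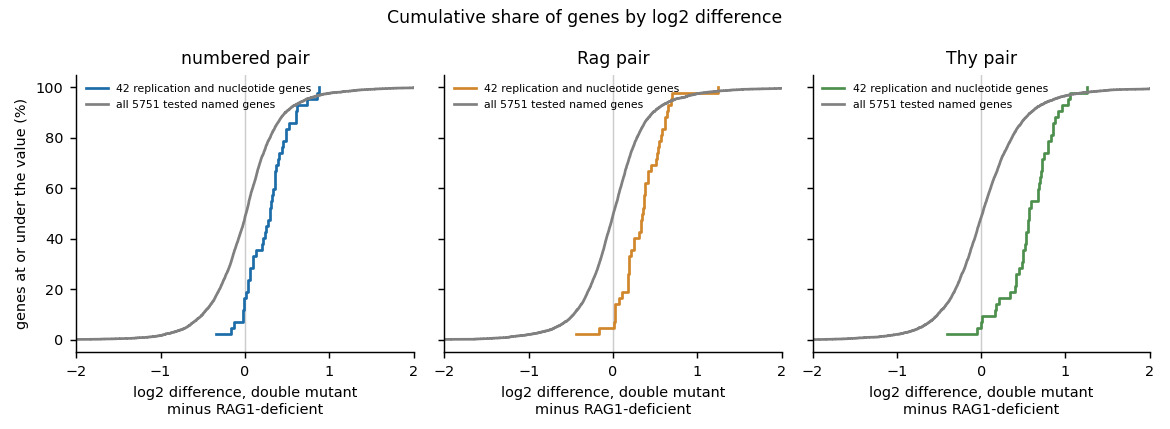
Cumulative share of genes (vertical axis, percent) at or under a log2 difference (horizontal axis, double mutant minus RAG1-deficient) in each title-style pair, in colour for the 42 genes and in grey for all 5751 tested named genes. The coloured curve lies to the right of the grey one over most of its length in each pair, with medians of 0.29, 0.35 and 0.57.

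Among the genes that load and form the replicative helicase, 9 of 10 were tested and 9 of 9 lay above 0, with a median log2 difference of 0.50. Cdt1 brings the Mcm ring to origins. Its brighter probe set read 2398, 1790.1 and 2383 in double mutant arrays, against 1571.3, 1105.2 and 1254.4 in RAG1-deficient arrays. Each double mutant value exceeded all RAG1-deficient values, and the log2 difference was 0.73 ± 0.23 (SE), with 0.60, 0.68 and 0.91 in the numbered, Rag and Thy pairs. The paired fit gave an adjusted p of 0.0583, just above the threshold. With 1 pair left out, the paired adjusted p of Cdt1 was 0.214 without the numbered, 0.0229 without the Rag and 0.153 without the Thy pair. Without the Rag pair 191 of all 7642 probe sets (2.5%) passed, against 51 with all pairs, and 3 of the 47 member probe sets did. A second probe set of Cdt1, which can detect related transcripts, showed 0.18 ± 0.27 (SE) and was at -0.03 in the Rag pair.

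Mcm3, a subunit of the hexameric helicase, read 2449.5, 2073.5 and 2794.3 in double mutant arrays, against 1856.3, 1582.6 and 1606 in RAG1-deficient arrays, again without overlap. Its log2 difference was 0.52 ± 0.21 (SE, paired adjusted p = 0.167), but this probe set can detect related transcripts. The other Mcm3 probe set overlapped, at 1023.6, 1102.2 and 1591.6 in double mutant arrays, against 684.5, 917 and 1108.5 in RAG1-deficient arrays, with 0.45 ± 0.27 (SE). Mcm7, another subunit, read 3749.8, 3646.2 and 4994.2 in double mutant arrays, against 3025.9, 3463.7 and 3016.5 in RAG1-deficient arrays. The groups did not overlap, though the lowest double mutant and the highest RAG1-deficient value, both from Rag arrays, were close together. The log2 difference was 0.37 ± 0.22 (SE, paired adjusted p = 0.343), and 0.22 without the double mutant Thy array or 0.19 without the Thy pair. Gmnn encodes geminin, which binds Cdt1 and blocks a further round of loading. It read 1000.3, 1362.2 and 1098.8 in double mutant arrays, against 824.6, 932.2 and 667.8 in RAG1-deficient arrays, with a log2 difference of 0.50 ± 0.23 (SE, paired adjusted p = 0.195).

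The other helicase genes overlapped between the groups. Cdc45, which joins the Mcm ring when it is switched on, read 867.2, 588.4 and 912.4 in double mutant arrays, against 667.6, 377.2 and 436.8 in RAG1-deficient arrays. In each pair the double mutant array was the higher, and the log2 difference was 0.67 ± 0.29 (SE). Log2 differences were 0.52 for Cdc6, 0.50 for Mcm4, 0.36 for Mcm5 and 0.11 for Mcm2, and those of Cdc6 (-0.02) and Mcm2 (-0.17) were below 0 in the numbered pair. The probe set of Mcm6 read 13, 2.6 and 41.9 in double mutant arrays, against 4.4, 10.4 and 10.9 in RAG1-deficient arrays. It was under the filter level on all 6 arrays and was not tested.

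**Figure D3:**
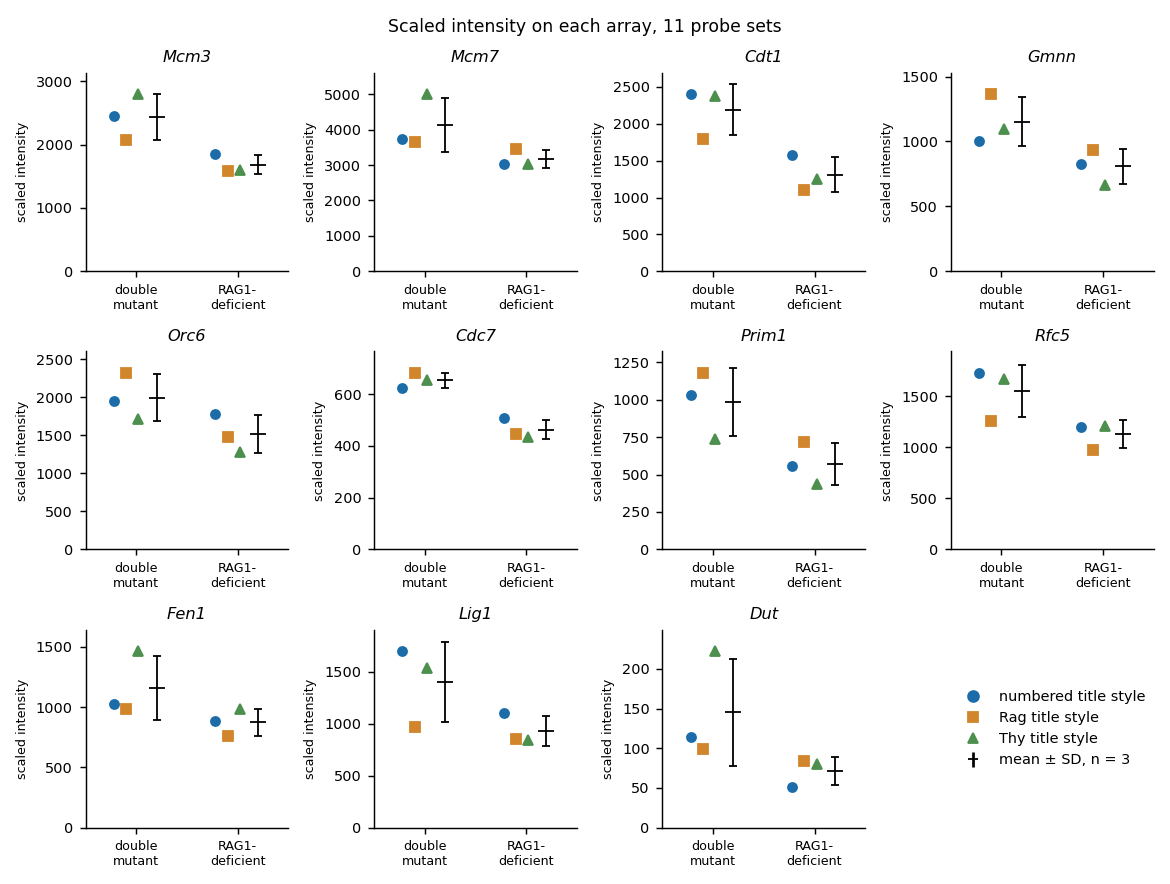
Scaled intensity (vertical axis, linear, from 0) of 11 probe sets on each array, with double mutant arrays left of RAG1-deficient arrays, symbols for the title style and black marks for the mean ± SD of 3 arrays. The groups do not overlap for Mcm3, Mcm7, Cdt1, Gmnn, Cdc7, Prim1, Rfc5, Fen1 and Dut, and they do for Orc6 and Lig1.

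Letters that E2F factors are known to bind stand in some of these promoters. The E2F consensus was searched as TTTCCCGC, TTTCGCGC, TTTGCCGC and TTTGGCGC on both strands, from 250 bases before to 50 bases after the gene start in RefSeq (GRCm38.p6). It stood in the window of 13 of the 41 genes that have a promoter entry (31.7%), against 2.6% of all 27025 genes with an entry. The 41 include Tyms, and the 27025 are not limited to genes on the array or to expressed genes. Gmnn, without overlap between the groups, has no promoter entry and was not searched. Cdc7, Prim1, Rfc5, Fen1 and Dut, also without overlap, were searched and hold no E2F match. Matches on opposite strands can overlap each other. The 3 genes without overlap between the groups that hold it were Cdt1, Mcm3 and Mcm7, and they are printed to show where the letters lie, with E2F matches and CCAAT boxes (CCAAT or ATTGG) in capitals. Positions count from 1 at the gene start, with negative positions before it.
Cdt1, chr8:122568035-122568064, plus strand, positions 21 to 50: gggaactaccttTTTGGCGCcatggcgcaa
Mcm3, chr1:20820265-20820294, minus strand, positions 19 to 48: gGCGGGAAAacttgggaagtTTTGGCGCca
Mcm7, chr5:138171849-138171878, minus strand, positions 6 to 35: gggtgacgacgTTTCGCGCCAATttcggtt
Mcm3, chr1:20820313-20820562, minus strand, positions -250 to -1: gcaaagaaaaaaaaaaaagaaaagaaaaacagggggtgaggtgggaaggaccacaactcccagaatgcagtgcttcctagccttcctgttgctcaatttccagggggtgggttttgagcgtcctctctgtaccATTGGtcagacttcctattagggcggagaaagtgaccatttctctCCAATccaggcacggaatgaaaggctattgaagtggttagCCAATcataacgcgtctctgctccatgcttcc
Mcm7, chr5:138171884-138172133, minus strand, positions -250 to -1: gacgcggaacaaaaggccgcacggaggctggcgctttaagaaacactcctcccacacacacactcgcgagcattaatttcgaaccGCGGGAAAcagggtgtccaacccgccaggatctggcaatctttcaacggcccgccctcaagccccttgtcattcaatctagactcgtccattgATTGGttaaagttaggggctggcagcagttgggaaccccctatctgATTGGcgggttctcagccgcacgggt

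The matches of Cdt1 and Mcm3 lie after the start, while Mcm7 has one after and one before it. The median log2 difference was 0.44 over the 12 tested genes with a match and 0.41 over the 26 without. Counting only the bases before the start, the order turned, with 0.36 over 7 genes with a match and 0.42 over 31 without. Mcm6 holds 3 matches, more than any other gene of the list, but its probe set was too dim to test. CCAAT boxes stood in the window of 56.1% of the genes, against 41.1% of all genes. The CHR element, searched as TTTGAA and TTCGAA on both strands and known from genes transcribed late in the cycle, stood in 19.5%, against 21.7% of all genes.

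The 5 listed genes of the origin recognition complex, which marks where replication can begin, all lay above 0. They were higher in all 3 pairs, with log2 differences between 0.25 and 0.42. Orc3 is not among the listed genes. Orc6 had the smallest p of the 5. It read 1950.8, 2324.4 and 1713.1 in double mutant arrays, against 1779.8, 1478.3 and 1280.9 in RAG1-deficient arrays. The lowest double mutant value lay under the highest RAG1-deficient value, and the log2 difference was 0.40 ± 0.23 (SE, paired adjusted p = 0.289). Orc1, the subunit that comes and goes with the cell cycle in mammalian cells, read 211.3, 151.3 and 224 in double mutant arrays, against 164.1, 114 and 163.4 in RAG1-deficient arrays. Its log2 difference of 0.36 ± 0.30 (SE) was small against the error, while the 3 pair values of 0.32, 0.35 and 0.41 were close together.

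Among kinases and phosphatases that license or halt firing, 3 of 4 genes were tested and 3 lay above 0. Cdc7 phosphorylates the loaded Mcm ring. It read 625.8, 683.2 and 653 in double mutant arrays, against 506.8, 447.7 and 435.4 in RAG1-deficient arrays. The spread within each group was small (SD of 28.7 and 38.2, n = 3 each) and the groups did not overlap, with a log2 difference of 0.48 ± 0.20 (SE, paired adjusted p = 0.232). Its partner Dbf4, without which the kinase is inactive, was read by a single dim probe set at 30.9, 13.8 and 24.4 in double mutant arrays, against 21.7, 18.9 and 15.9 in RAG1-deficient arrays, and was not tested. The checkpoint kinase gene Chek1 had a log2 difference of 0.47 ± 0.34 (SE) and pair values of 0.35, 0.55 and 0.50. Cdc25a, a phosphatase that activates Cdk2, had 0.18 ± 0.24 (SE).

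The 2 primase subunits parted. Prim1, the catalytic subunit that lays down the RNA primer, read 1033.3, 1179.3 and 735.1 in double mutant arrays, against 559.3, 717.3 and 438 in RAG1-deficient arrays. Both Thy arrays were the lowest of their group, yet the groups did not overlap. The log2 difference was 0.76 ± 0.27 (SE), with 0.86, 0.70 and 0.72 in the 3 pairs, and the paired adjusted p was 0.0603. With 1 pair left out it was 0.240 without the numbered, 0.0495 without the Rag and 0.145 without the Thy pair. Prim2, the large regulatory subunit, read 594.6, 496.6 and 729.3 in double mutant arrays, against 579.1, 681.5 and 729.8 in RAG1-deficient arrays. It was lower in the Rag pair (-0.44) and near 0 in the other pairs, with a log2 difference of -0.13 ± 0.23 (SE). The difference between the subunits was not tested.

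The polymerase genes lay above 0 in 5 of 5 cases. Pola1 and Pola2, the subunits of the polymerase that extends the primer, had log2 differences of 0.49 ± 0.40 and 0.53 ± 0.29 (SE) and were higher in all 3 pairs. Pola1 read 1038.2, 523.4 and 1317.1 in double mutant arrays, against 753.4, 386.9 and 866.7 in RAG1-deficient arrays. The Rag arrays were the lowest in both groups, so the groups overlapped while each pair differed by 0.41 to 0.59. Pold1 and Pold2, of the lagging-strand polymerase, had 0.46 and 0.41. In the Thy pair they reached 1.05 and 0.79, and in the numbered pair they stood at 0.01 and -0.01. A second, dimmer probe set of Pold1 showed 0.06. Pole2, of the leading-strand polymerase, had 0.42 ± 0.31 (SE) and was at -0.05 in the Thy pair.

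The clamp, its loader and the single-strand binding proteins were 9 tested genes, 9 of them above 0, with a median log2 difference of 0.33. Replication factor C opens the Pcna ring and places it on DNA. Of its subunits Rfc5 did not overlap, at 1728.3, 1259.1 and 1663.1 in double mutant arrays, against 1198.1, 967.9 and 1208.4 in RAG1-deficient arrays. The log2 difference was 0.45 ± 0.22 (SE, paired adjusted p = 0.182), and a dimmer Rfc5 probe set showed 0.12 ± 0.41 (SE). The other loader genes ranged from 0.07 for Rfc3 to 0.52 for Rfc4. A second Rfc1 probe set, which can detect related transcripts, ran from 8.8 to 344.1 over the arrays and pointed both ways between pairs.

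Pcna, the sliding clamp, read 4536.6, 7378.8 and 5655.2 in double mutant arrays, against 3421.6, 5548.4 and 4990.2 in RAG1-deficient arrays. It was higher in all 3 pairs, by 0.40, 0.41 and 0.18 on the log2 scale, and the groups overlapped, with both Rag arrays bright. The log2 difference was 0.33 ± 0.27 (SE). Replication protein A coats single-stranded DNA. Its subunit genes Rpa1 and Rpa3 had 0.48 ± 0.25 and 0.46 ± 0.25 (SE), and the middle subunit gene Rpa2 had 0.08 ± 0.25 (SE).

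Of the genes for lagging-strand joining and chromatin assembly, Fen1, Lig1, Chaf1a and Chaf1b lay above 0 and Top1 below. Fen1, the nuclease that trims RNA primers, read 1024.6, 984.2 and 1466.5 in double mutant arrays, against 883.7, 759.5 and 982.6 in RAG1-deficient arrays. Its lowest double mutant value, 984.2, exceeded the highest RAG1-deficient value, 982.6, only narrowly. The log2 difference was 0.38 ± 0.24 (SE, paired adjusted p = 0.298), and 0.20 without the double mutant Thy array. Lig1, the ligase that seals the fragments, read 1702.6, 965.5 and 1540.8 in double mutant arrays, against 1101.2, 850.6 and 846.6 in RAG1-deficient arrays. It had a log2 difference of 0.55 ± 0.27 (SE, paired adjusted p = 0.211) and its paired adjusted p was 0.445, 0.0474 and 0.413 with the numbered, the Rag and the Thy pair left out. Both large subunits of chromatin assembly factor 1, which deposits histones behind the fork, were above 0, with 0.35 for Chaf1b and 0.18 for Chaf1a, the last at -0.34 in the numbered pair. Top1 relieves torsion ahead of forks and of transcribing polymerases. It read 4778, 2695.4 and 3221.3 in double mutant arrays, against 4838.8, 3015.1 and 4259.6 in RAG1-deficient arrays. It was lower in all 3 pairs, by -0.02, -0.16 and -0.40, with a log2 difference of -0.19 ± 0.29 (SE). The values of Prim2, Top1, Mcm6, Dbf4, Cdc45, Pola1, Pcna, Orc1 and Rrm2 on each array are given although the rule for full values does not name them, and they were chosen after the values were seen. Nor does the rule name the second Mcm3 probe set, the untested Tk1 probe set, or Nasp, Shmt1, Rrm2b and Birc5, whose values are given too.

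Of the 4 tested nucleotide synthesis genes, Rrm1, Rrm2 and Tk1 lay above 0 with a median log2 difference of 0.42, and Dut, which had to lie above 0 to pass the filter, is given apart. Dut encodes the enzyme that destroys dUTP so that uracil stays out of DNA. Its probe set lay close to the filter level, at 113.8, 98.8 and 222.8 in double mutant arrays, against 51.4, 83.6 and 80.3 in RAG1-deficient arrays. The groups did not overlap, but all 3 RAG1-deficient values lay under the filter level of 86.5, and the log2 difference of 0.77 ± 0.41 (SE, paired adjusted p = 0.342) was between 0.46 (without the double mutant Thy array) and 1.06 over 19 alternative settings. Rrm1 and Rrm2 encode the subunits of ribonucleotide reductase. Rrm2 read 1811.1, 914.8 and 1719.7 in double mutant arrays, against 1513.6, 373.4 and 1058 in RAG1-deficient arrays. Both Rag arrays were the lowest of their group, and the error on the log2 difference was wide, at 0.73 ± 0.49 (SE). The Rag pair differed most (1.24), and the paired adjusted p was 0.181. Rrm1 had 0.42 ± 0.28 (SE) and the thymidine kinase gene Tk1 0.31 ± 0.24 (SE), the last at -0.12 in the numbered pair.

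The 10 member probe sets that were not tested belong to Mcm5, Mcm6, Orc2, Orc5, Dbf4, Cdc25a, Pola2, Lig1, Rrm1 and Tk1. Apart from those of Mcm6 and Dbf4, each of them has a brighter, tested probe set for the same gene. Of these 8 second probe sets, 7 had a lower mean in the double mutant, opposite to the tested probe set of the same gene, and that of Orc2 had a higher one. The one of Tk1, the most divergent, read 21.1, 16.9 and 40 in double mutant arrays, against 76.5, 115.8 and 27.6 in RAG1-deficient arrays. Their means over 3 arrays lay between 6.6 and 90.0, near the dim end of the array.

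The genes also varied from array to array within a group. Relative to each gene's own mean over the 6 arrays, the median deviation of the 42 genes was 0.22, 0.025 and 0.37 on the double mutant arrays, against -0.10, -0.29 and -0.21 on the RAG1-deficient arrays (log2). The double mutant medians were all above the RAG1-deficient ones, and the double mutant Thy array was highest, with 36 of 42 genes above their own mean. The difference between Rag arrays and the others was about as large as that between genotypes. The mean of the Rag arrays differed from that of the other 4 arrays by a median absolute log2 value of 0.45, against 0.42 for the genotype difference. Other contrasts between title styles were not taken. The Rag differences ran in both directions, with 25 genes lower and 17 higher on Rag arrays. Rrm2 was the lowest there (-1.32), with Pola1 next (-1.07), and Pold2 (0.70) and Rfc4 (0.57) were the highest.

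**Figure D4:**
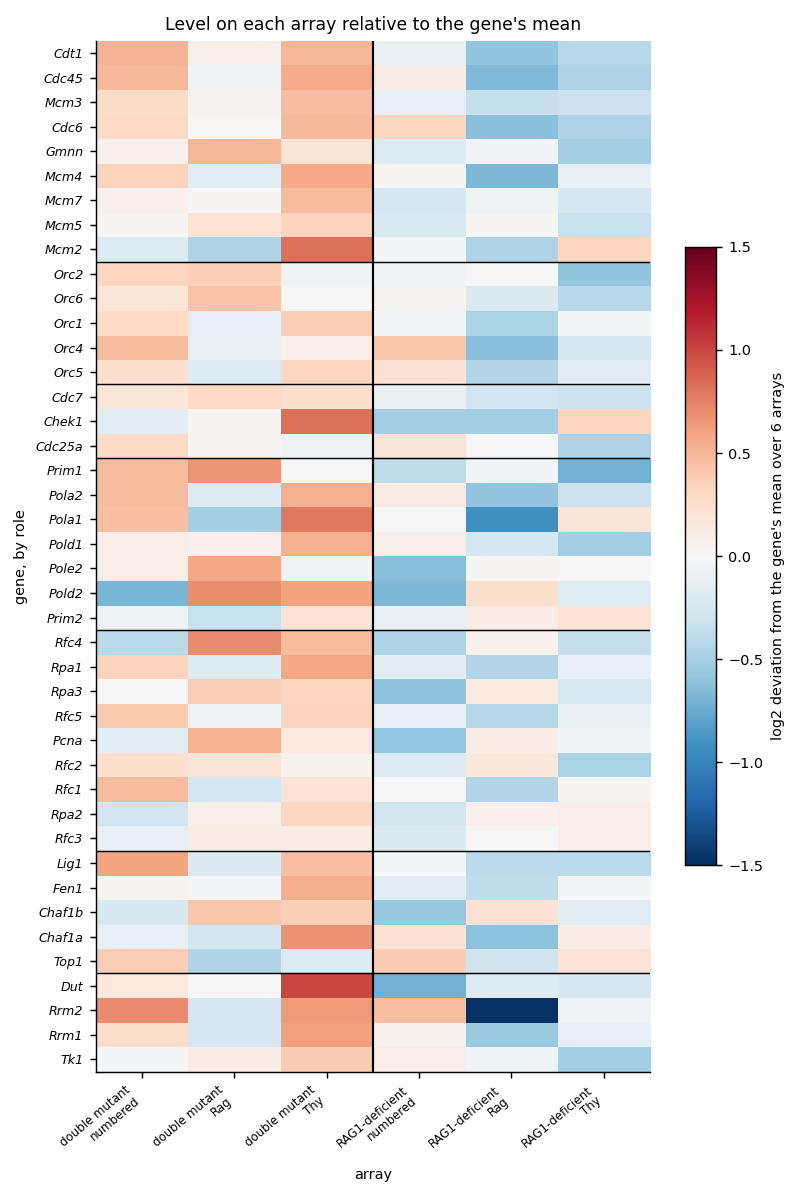
Log2 deviation from each gene's mean over the 6 arrays (colour) for 42 genes (rows, grouped by role) on the 3 double mutant arrays (left) and the 3 RAG1-deficient arrays (right). Red prevails in the columns of the double mutant numbered and Thy arrays (medians 0.22 and 0.37), and the Rag array of the double mutant is mixed (0.025).

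Other genes of the same processes showed the shift to unequal degrees. Of 32 further replication fork genes, 20 were on the array and 19 tested. Of these, 17 lay above 0 and 2 below, with a median log2 difference of 0.27 and 0 passing in either fit. The histone chaperone genes Nasp and Asf1b had 0.70 ± 0.29 and 0.53 ± 0.22 (SE), both without overlap. Nasp read 668, 693.6 and 602.6 in double mutant arrays, against 564.1, 409.1 and 264.1 in RAG1-deficient arrays. Top2a, the topoisomerase of replicated chromosomes, and Dtl, which targets Cdt1 for destruction, had 0.47 ± 0.23 and 0.50 ± 0.26 (SE).

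Of 35 further nucleotide synthesis genes, 25 were on the array and tested, of which 17 lay above 0 and 8 below, and their median log2 difference was 0.07. None passed in either fit. Shmt1, which feeds one-carbon units to thymidylate synthesis, read 755.2, 638.3 and 748.8 in double mutant arrays, against 539.9, 551.7 and 474.7 in RAG1-deficient arrays, with a log2 difference of 0.43 ± 0.21 (SE). Cad, which starts pyrimidine synthesis, had 0.46 ± 0.25 (SE), and Dctpp1, a pyrophosphatase of dCTP, had 0.40 ± 0.27 (SE). Rrm2b is a p53-induced reductase subunit, known for supplying nucleotides outside S phase. Its probe set, which can detect related transcripts, read 130.7, 197.2 and 216.4 in double mutant arrays, against 230.6, 290.2 and 300.5 in RAG1-deficient arrays. It was lower without overlap, opposite to its S-phase counterpart Rrm2, with a log2 difference of -0.56 ± 0.28 (SE) and a paired adjusted p of 0.275. Whether the lists differ from each other was not tested.

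**Figure D5:**
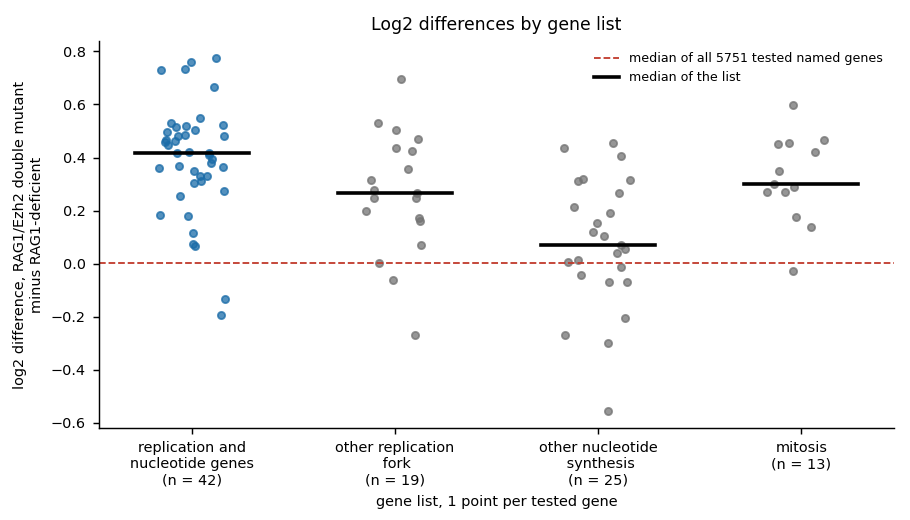
Log2 difference (vertical axis, double mutant minus RAG1-deficient) of each tested gene in 4 lists, with a black bar for the list's median and a dashed line for the median of all 5751 tested named genes. The medians are 0.42 for the 42 replication and nucleotide genes, 0.27 for 19 other fork genes, 0.07 for 25 other nucleotide synthesis genes and 0.30 for 13 mitosis genes.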

How the data were processed

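Scaled intensity values on a linear scale were deposited for 12488 probe sets on each of 6 single-colour arrays; how the authors made them is not given in the sources used here. The 2%-trimmed means lay between 500.293 and 500.37, so each array had been scaled to a common mean and a change common to most genes could not be seen. Between 55.2% and 64.3% of probe sets per array exceeded 86.5, the 40th percentile of all values, and precision is limited by having few arrays. The 66 control probe sets were left out. Gene names came from the platform's table; 10833 probe sets had 1 gene, 396 several and 1193 none. Symbols were looked up by Entrez number in a RefSeq table (GRCm38.p6), which matched 10817 and changed 0.

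Groups were taken from the sample descriptions. Values were tested as log2(intensity + 23), 23 being the rounded 20th percentile, for the 7642 probe sets above 86.5 on at least 3 arrays. limma 3.58.1 (lmFit, eBayes with trend; R 4.3.3) was used. Its two-sided p-values were adjusted by Benjamini and Hochberg's method across the tested probe sets, with 0.05 as threshold. A gene with several tested probe sets was counted by its brightest. The main fit had group alone. The deviations of same-style arrays from their group means correlated at 0.57, 0.74 and 0.60, all over 0.1, and a paired fit (style as a block) therefore stands beside the results it bears on. Pairs come from the wording of titles alone. No 2 arrays held identical values. The tests were checked on simulated data with independent noise, no title-style effect and planted differences larger than those of the members. That check does not cover small shifts shared by many genes.

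All members were to be described by role. Values on each array were to be printed for members without overlap, for the smallest p of each role class and for members whose probe sets differ in sign, and of each other list at most 4 genes with the smallest p were to be named. The members and lists were chosen with earlier results of these data known. Alternatives covered the block, array scaling, the filter, the pseudocount (11.5 and 92), the trend, the choice of probe set and leaving out arrays or pairs. Python 3.11.15 and matplotlib 3.10.9 drew the figures.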

Additional observations from a re-analysis of the deposited data

How the results depend on the processing

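With 1 array left out, the median log2 difference of the 42 genes lay between 0.32 and 0.44 and 37 to 40 were above 0; with 1 pair left out it lay between 0.35 and 0.47, with 38 to 41 above 0. Quantile scaling gave 0.42 and median scaling 0.43, against -0.001 and 0.01 for all tested genes. No member probe set passed in any of these settings except without the Rag pair in the paired fit, where 3 did (range over the pairs left out 0 to 3), beside 191 of all 7642 (2.5%). With all 6 arrays the replicate block changed no member's call. Member probe sets without overlap numbered 14 of 47 with median scaling, with or without the block, beside 3.76% of all probe sets. With 1 array left out they numbered 11 (beside 8.54% of all) to 21 (beside 9.93%), and the lowest share of all, 6.74%, stood beside 13. With 1 pair left out they numbered 15 (beside 11.4% of all) to 24 (beside 12.4% or 14.2%). Fewer arrays make non-overlap easier. Over all probe sets the unpaired fit called 3; the count was 51 with the replicate block, 5 with quantile scaling, 1 with the filter on all 6 arrays, 0 to 6 with 1 array left out, 3 to 191 with 1 pair left out, and 22 and 36 for quantile and median scaling with the block, 2 settings added after seeing the data. Without a filter 42 of 44 genes were above 0. The cause of the other changes was not tested. Depth of signal limits Dut, Mcm6 and Dbf4.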

Other observations

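Genes of mitosis, the step that follows replication, also lay mostly above 0. Of 13 tested, 12 were above 0 and 1 (Mad2l1) below, with a median log2 difference of 0.30 and 0 passing in either limma fit; at an unadjusted p under 0.05, the unpaired fit counted 0 and the paired fit 6, where 3.5% and 13.7% of all tested named genes were counted. The numbered pair, whose RAG1-deficient array carried the CD8 signal, had the smallest median (0.065), the Rag pair 0.38 and the Thy pair 0.54. The part of that array's other cells in this was not tested. Birc5, the survivin gene of the chromosomal passenger complex, read 1317.2, 1219.2 and 1373.3 in double mutant arrays (numbered, Rag and Thy), against 1258.1, 879.3 and 740 in RAG1-deficient arrays, with a log2 difference of 0.47 ± 0.24 (SE). The spindle kinase gene Aurka had 0.45 ± 0.25 (SE), the checkpoint kinase gene Bub1 0.60 ± 0.33 (SE) and the anaphase activator gene Cdc20 0.45 ± 0.28 (SE).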
